A study of Mus musculus with 6 samples.

Results

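Actin is the filament-forming protein of the cell cortex. Cells hold it as monomers, bound by thymosins and profilin, and as filaments that are branched by the Arp2/3 complex, bundled, severed by cofilin and tied to adhesion sites and the membrane. In thymocytes these filaments carry migration through the thymus and the contacts made with stromal cells, and beta-actin is also the usual reference transcript of expression assays. The genes described here are the nonmuscle actin isoforms Actb and Actg1, the monomer binders Pfn1, Tmsb4x and Tmsb10, the severing factor Cfl1, the coronin Coro1a, the Arp2/3 subunits Arpc2 and Arpc5, and the adhesion protein Tes. They were read by every probe set whose platform annotation names exactly 1 of these 10 genes, which gave 19 probe sets, with the 3 Affymetrix control probe sets for the 3′, middle and 5′ parts of the beta-actin transcript beside Actb, so 22 of 22690 probe sets and 10 of the 12394 genes named by the annotation.

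The values come from thymocytes of Cd3e-/- mice, in which T-cell development stops before a functional pre-T-cell receptor can signal. All 6 arrays share this deletion, the C57BL6 strain, the thymus as tissue and an age of 3 weeks, and no animal was treated. The 3 arrays labelled SCLtg LMO1tg stand for mice that also carry an SCL transgene driven by Sil regulatory sequences and an LMO1 transgene driven by Lck sequences, which are active in thymocytes, while the 3 arrays labelled control stand for mice without transgenes. The comparison asks which transcripts differ once these oncogenes are expressed. No source used here tells whether arrays that share a label come from different animals, and a p-value covers only the spread among these arrays.

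Each value is a log2 expression level made by the authors with RMA, 1 per probe set and array, and every difference below is the mean of the arrays labelled SCLtg LMO1tg minus that of the arrays labelled control. Lmo1, the gene of a transgenic oncogene, read 5.11, 5.07 and 4.86 in the arrays labelled SCLtg LMO1tg and 6.64, 6.84 and 6.77 in those labelled control. This difference of −1.74 (SE 0.14, limma adjusted p = 0.00162) goes against the labels, which are used here as they stand. It is not stated whether the Lmo1 probe set can read the transgene. The gene of SCL, Tal1, was too dim for the filter on low values, at 4.55, 4.63 and 4.71 against 4.35, 4.27 and 4.44. Cd3e, the disrupted gene, read 8.58 ± 0.06 against 8.52 ± 0.18 (SD, n = 3 each), and whether its probes lie in the deleted part is not given. Actb and Tes stand on the study's list of genes higher in transgenic thymocytes, so the direction found for both below opposes the study's. The same holds for the whole list, up and down: of 86 genes, 63 were found by symbol, and for all 63 the probe set with the largest difference went against the listed direction. That list was chosen on these arrays, so for these 63 genes the study's direction and the labels run opposite on the same arrays. The list is no independent evidence of direction, and which of the 2 is right was not tested. Lyl1, Hhex and Nfe2 are listed as higher, and quantitative PCR on purified thymocytes was also run for these 3. From that assay the study describes them as activated by SCL with LMO1, which also opposes the labels. On the arrays these 3 genes differed by −1.22 (SE 0.18), −1.03 (SE 0.18) and −1.44 (SE 0.17), with limma adjusted p = 0.0590, 0.120 and 0.0154. Were the 2 labels exchanged, the sign of each label difference below would turn, and sizes, overlaps and p-values would stay.

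The arrays also fall into sets that cross the labels. The mean of 9 bacterial hybridization control probe sets was 10.56, 10.76 and 10.78 in SCLtg LMO1tg 1, control 2 and control 3, called the high set, and 9.12, 9.36 and 9.78 in SCLtg LMO1tg 2, SCLtg LMO1tg 3 and control 1, called the low set. Of all 13779 probe sets tested, 38.5% had values that did not overlap between these sets. Array medians ranged from 5.57 to 5.70, and correlations between arrays from 0.969 to 0.994. Xist, the RNA that coats the inactive X, read 6.15 in control 2 and 10.08 to 11.16 in the other arrays by its brightest probe set. The Y-linked gene Eif2s3y read 5.43, 6.23 and 5.74 in SCLtg LMO1tg 1, SCLtg LMO1tg 2 and control 2, and 2.74 to 3.15 in the other 3 arrays, so 2 arrays labelled SCLtg LMO1tg read both genes high. Thymocyte genes read clearly, with Ptprc at 10.83, Rag1 at 10.89 and Thy1 at 10.34 as means over the 6 arrays. The mean over 11 thymocyte probe sets was 8.86 to 9.15 in the arrays labelled SCLtg LMO1tg and 8.59 to 8.94 in those labelled control, and it did not overlap between the hybridization sets. Of the 11, 2 were higher at an unadjusted p under 0.05, where 6.18% of all tested were. These were Rag1 (0.97, SE 0.22) and Ptcra, the pre-T-cell receptor alpha chain, which passed limma (1.28, SE 0.16, adjusted p = 0.0231). The study lists Ptcra as lower in transgenic thymocytes.

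The marker means of some other cell types did not overlap between the labels. The mean over 8 neutrophil probe sets was 7.06 to 7.94 in the arrays labelled SCLtg LMO1tg and 5.85 to 6.62 in those labelled control. Of the 8, 6 had an unadjusted p under 0.05, all higher, where 6.18% of all tested were higher. The mean over 17 probe sets of fibroblasts, smooth muscle and pericytes ran the other way, at 4.54 to 4.67 against 4.75 to 4.95. Of the 7 tested, 2 were lower at an unadjusted p under 0.05, where 2.67% of all tested were. Pdgfrb of this list also stands on the study's list and differed by −1.16 in its probe set with the largest difference. Acta2 of the same marker list differed by 0.11. Erythroid markers read 6.06 to 6.62 against 5.84 to 5.93. B-cell markers read 4.67 to 4.83 against 4.85 to 5.05, and only 7 of their 18 probe sets passed the filter. The means for endothelium, thymic epithelium, and macrophages and dendritic cells overlapped between the labels. Of the stromal genes Col1a1, Col3a1, Lum and Myh11 lay below the filter. The part of these cells in any difference below was not tested.

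RefSeq places Actb at chr5:142903115-142907976, Actg1 at chr11:120345687-120348495, Coro1a at chr7:126699774-126704816 and Tes at chr6:17065149-17105825 in the GRCm38.p6 build. Promoter sequences from RefSeq, 250 bases before to 50 after a gene's start, were found for 9 of the 10 genes, as 12 windows, and Actb has no entry. Shown are those of Tes, the gene with the largest difference shared by all its probe sets, of Coro1a, which had the largest values in the other direction, and of Actg1, which alone held a CArG box, the DNA element of serum response factor, a regulator of actin genes. All run 5′ to 3′ on the gene's strand, at chr6:17064899-17065198 (+), chr7:126704767-126705066 (−) and chr11:120348446-120348745 (−). In capitals are the general E box pattern CANNTG, only some forms of which SCL reads with E proteins, and in Actg1 also the CArG box.
Tes: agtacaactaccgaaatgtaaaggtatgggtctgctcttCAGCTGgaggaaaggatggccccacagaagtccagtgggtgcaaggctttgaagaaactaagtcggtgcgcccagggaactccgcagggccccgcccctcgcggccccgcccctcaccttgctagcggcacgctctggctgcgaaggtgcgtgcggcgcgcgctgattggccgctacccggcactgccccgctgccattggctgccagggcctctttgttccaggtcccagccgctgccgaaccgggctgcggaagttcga
Coro1a: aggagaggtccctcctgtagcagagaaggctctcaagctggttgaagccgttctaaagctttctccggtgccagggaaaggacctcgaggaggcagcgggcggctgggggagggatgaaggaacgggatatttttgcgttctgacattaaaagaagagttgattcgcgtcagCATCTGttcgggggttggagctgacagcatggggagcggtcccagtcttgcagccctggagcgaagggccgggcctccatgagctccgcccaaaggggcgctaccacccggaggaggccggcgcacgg
Actg1: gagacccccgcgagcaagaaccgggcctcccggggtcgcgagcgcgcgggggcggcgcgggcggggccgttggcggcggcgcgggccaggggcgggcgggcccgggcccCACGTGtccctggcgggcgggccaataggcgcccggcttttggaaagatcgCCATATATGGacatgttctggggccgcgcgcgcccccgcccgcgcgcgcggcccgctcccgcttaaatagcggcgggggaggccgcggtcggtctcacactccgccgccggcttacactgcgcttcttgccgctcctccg
The E box lies at −211 in Tes as CAGCTG, at −78 in the Coro1a window shown as CATCTG, the reverse complement of CAGATG, and at −141 in Actg1 as CACGTG, and the CArG box of Actg1 at −90. Coro1a has another window, not shown, which held no CANNTG. On both strands, CANNTG was in 8 of the 12 windows and in 72.3% of all 32841 promoters of this length, CAGATG in 1 and in 17.2%, CAGCTG in 1 and in 16.3%, and the CArG box in 1 and in 1.63%. CAGATG and CAGCTG are also matches of CANNTG. The GATA elements AGATAA and TGATAA were in 0 and 2 of the 12 windows, against 11.2% and 9.05% of all. A match describes the letters and not a bound site.

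Of the 22 probe sets, 18 passed the filter, which asked for a value no lower than the array's own 40th percentile on 3 or more arrays, and all 10 genes kept at least 1. No probe set passed limma at a Benjamini-Hochberg adjusted p under 0.05, where 0.102% of all probe sets tested did (7 higher and 7 lower). At an unadjusted p under 0.05, 3 of the 18 were lower, where 2.67% of all tested were, and 0 were higher, where 6.18% of all were. These 3 were 1 probe set of Actb and both of Tes. The values of 2, both of Tes, did not overlap between the labels in the lower direction, as was so for 5.82% of all tested. Rank products, the study's own kind of test, called the same 3 probe sets lower and 0 higher at a percentage of false positives under 0.1, where 0.443% of all were called lower and 0.305% higher. Under 0.01, the threshold named in the study, 1 was called lower, Actb 1419734_at, where 0.109% of all were, and both of Tes stood at 0.0133. The median difference over the 18 was −0.06 against −6.0e-04 over all tested, and the median absolute difference 0.14 against 0.16.

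**Figure D1:**
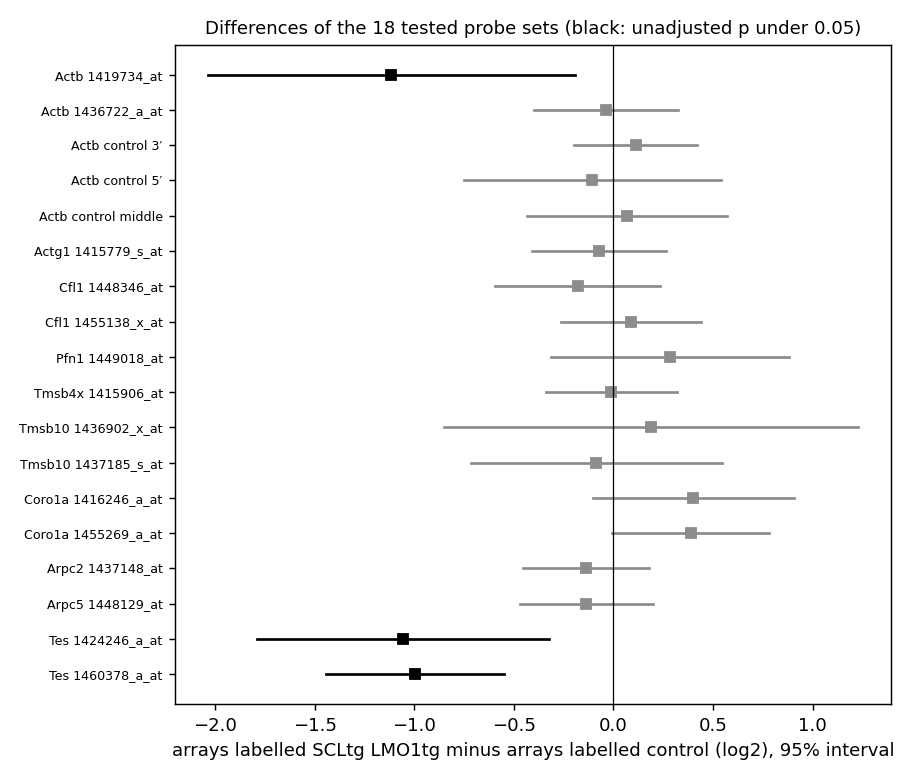
Difference in log2 expression (x axis, arrays labelled SCLtg LMO1tg minus arrays labelled control) with its 95% interval from limma for the 18 probe sets tested (y axis), black where the unadjusted p was under 0.05. The 3 black probe sets, 1 of Actb and both of Tes, lie near −1, and the intervals of 14 probe sets stay within 1 log2 unit of 0.

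The cytoplasmic actins come first. Actb encodes beta-actin, and its probe set 1436722_a_at was level over the arrays. It read 11.85, 11.83 and 11.82 in the arrays labelled SCLtg LMO1tg and 12.01, 12.03 and 11.58 in those labelled control. The labels overlap, and the difference was −0.04 (95% interval −0.40 to 0.32, limma adjusted p = 0.937).

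The second probe set, 1419734_at, which is annotated to the RefSeq transcript of Actb, behaved otherwise. It read 9.05, 7.42 and 8.35 in the arrays labelled SCLtg LMO1tg and 8.71, 9.87 and 9.59 in those labelled control. SCLtg LMO1tg 2 was the lowest and control 2 the highest, and the labels overlap because SCLtg LMO1tg 1 lay above control 1. The difference was −1.12 (SE 0.41, 95% interval −2.04 to −0.20), 2.17-fold lower with a limma adjusted p = 0.487. Its values ordered with the hybridization controls: the 3 arrays of the high set, at 9.05, 9.59 and 9.87, all lay above the 3 of the low set, at 7.42, 8.35 and 8.71. The high set exceeded the low set by 1.34. Within the low set the label difference was −0.83 and within the high set −0.68, and with the set as a block it was −0.75 (SE 0.24, adjusted p = 0.355). Without SCLtg LMO1tg 2 it was −0.69, and without SCLtg LMO1tg 1 it was −1.51. Over all alternatives its adjusted p ran from 0.0422, with array weights, to 1.00.

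The 3 beta-actin control probe sets sample the same transcript in order. The 3′ control read 12.68, 12.55 and 12.65 against 12.63, 12.42 and 12.49, a difference of 0.11 (95% interval −0.20 to 0.42). The middle control read 10.79, 11.01 and 10.91 against 10.97, 11.22 and 10.32, a difference of 0.07 (95% interval −0.43 to 0.57). The 5′ control read 9.97, 10.29 and 10.10 against 10.11, 10.93 and 9.64, a difference of −0.11 (95% interval −0.75 to 0.54). All 3 overlap between the labels, and the spread toward the 5′ end lay in the controls, where control 2 was the highest array and control 3 the lowest for the middle and 5′ parts.

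The distance between the 3′ and 5′ parts is a measure of how far the labelled RNA reaches along a transcript. For Actb it was 2.71, 2.26 and 2.54 in the arrays labelled SCLtg LMO1tg and 2.52, 1.48 and 2.86 in those labelled control (exact two-sided permutation p = 0.8, adjusted 0.9 over 6 such measures, where 3 against 3 arrays cannot go below 0.1). For Gapdh, read the same way, it was 3.51, 3.12 and 3.10 against 3.17, 2.38 and 3.01 (exact two-sided permutation p = 0.3, adjusted 0.9). Control 2 had the smallest distance for both genes. The Actb difference between labels was 0.22 and turned to −0.18 without control 2.

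**Figure D2:**
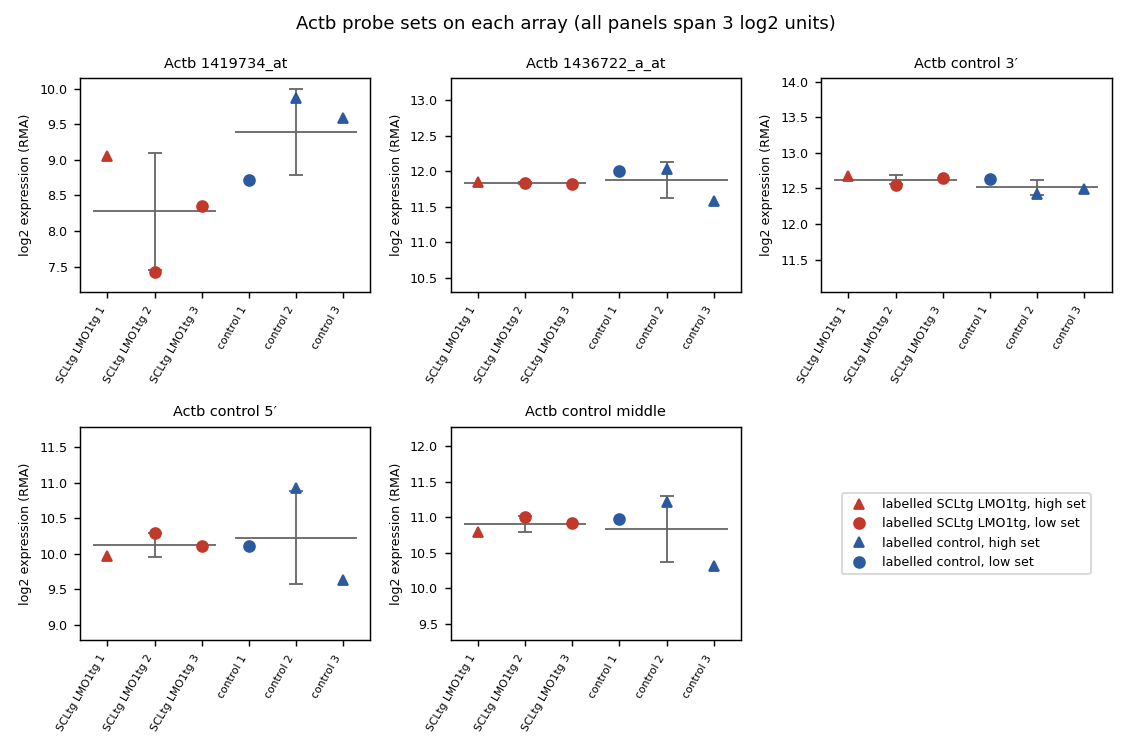
Log2 expression (y axis, each panel spanning 3 log2 units) of the 5 Actb probe sets on each of the 6 arrays (x axis), red for labelled SCLtg LMO1tg and blue for labelled control, triangles for the high and circles for the low hybridization set, with the mean and SD of 3 arrays in grey. Probe set 1419734_at runs from 7.42 to 9.87 with triangles above circles, while 1436722_a_at stays between 11.58 and 12.03.

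The genes whose probe sets ran most like those of Actb over the 6 arrays differed from one Actb probe set to the next. For 1419734_at they were Foxm1, Kif17 and Eda (Pearson r 0.996, 0.995 and 0.992), and for 1436722_a_at Inpp4a, Napsa and Tpm4 (0.994, 0.991 and 0.989). Tpm4 encodes a tropomyosin, which lies along the actin filament. For the 3′ control they were Mrps24, Cnp and Eif3i, for the middle control Apeh, Lrmp and Slc3a2, and for the 5′ control Rnps1, Vps35l and Carhsp1, with r of 0.978 to 0.995. These are the highest correlations among all probe sets tested over 6 points, and arrays of 1 hybridization set share their control signal, so they are a description of likeness alone.

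Actg1 encodes gamma-actin, the other cytoplasmic isoform. Its probe set 1415779_s_at read 11.28, 11.35 and 11.44 in the arrays labelled SCLtg LMO1tg and 11.52, 11.54 and 11.22 in those labelled control. The difference was −0.07 (95% interval −0.41 to 0.26, limma adjusted p = 0.873), with control 3 the lowest array and control 2 the highest. The suffix _s marks probes shared by several transcripts, and the coding sequences of the actins are nearly alike, so a share of signal from another actin cannot be told apart. Of the muscle isoforms only Acta2, smooth muscle actin, passed the filter, at 6.56, 6.29 and 6.28 against 6.19, 6.17 and 6.43, a difference of 0.11 (SE 0.15).

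Of the 5 Actb probe sets, 4 had 95% intervals of the label difference between −0.75 and 0.57, and 1419734_at was the exception.

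Among the proteins that bind monomers, Tmsb4x encodes thymosin beta-4, which holds actin monomers back from filaments, and lies on the X chromosome. It read 10.61, 10.72 and 10.80 in the arrays labelled SCLtg LMO1tg and 10.84, 10.78 and 10.54 in those labelled control. The difference was −0.01 (95% interval −0.34 to 0.32), and control 2, the array low in Xist, lay within the range of the others.

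Tmsb10 encodes thymosin beta-10, a close relative. Its 2 tested probe sets were even over the arrays labelled SCLtg LMO1tg and wide over the controls. Probe set 1436902_x_at read 9.03, 8.75 and 8.63 against 8.74, 7.42 and 9.70, a difference of 0.19 (95% interval −0.85 to 1.23). Probe set 1437185_s_at read 11.22, 11.002 and 11.02 against 11.29, 10.47 and 11.74, a difference of −0.09 (95% interval −0.72 to 0.55). In both, control 2 was the lowest and control 3 the highest of the 6 arrays, the reverse of the order of these arrays in the middle and 5′ controls of Actb. The sign followed the array left out: 1436902_x_at stood at −0.41 without control 2 and 0.73 without control 3, and 1437185_s_at at −0.43 and 0.20. The suffixes _x and _s mark probes that other transcripts may share. The remaining Tmsb10 probe sets, 1417219_s_at, 1436682_at and 1455946_x_at, read between 2.85 and 4.54 on all arrays, below the filter, and no label difference passed without the filter (limma adjusted p of 0.700 to 0.759).

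Pfn1 encodes profilin 1, which hands monomers to growing filament ends. It read 8.99, 9.35 and 9.61 in the arrays labelled SCLtg LMO1tg and 9.59, 8.94 and 8.56 in those labelled control. The labels overlap, with a difference of 0.28 (SE 0.26, 95% interval −0.31 to 0.88). The hybridization sets do not overlap: the low set lay between 9.35 and 9.61 and the high set between 8.56 and 8.99. Leaving out 1 array moved the label difference from 0.048, without control 3, to 0.56, without control 1. With the set as a block it was 0.06, and it was −0.11 within the low set and 0.23 within the high set.

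**Figure D3:**
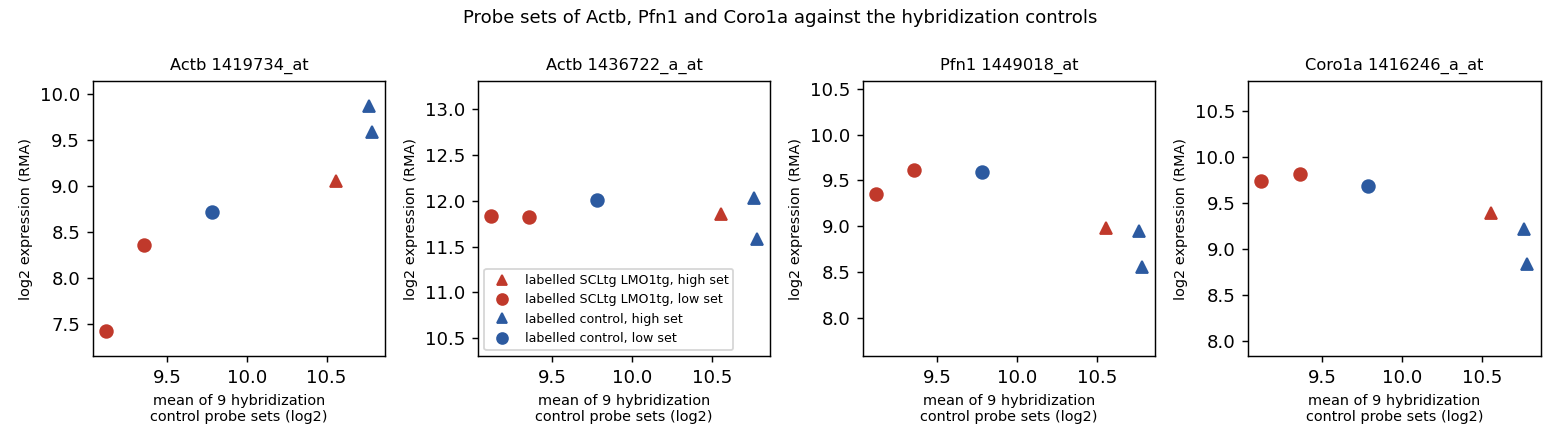
Log2 expression (y axis, 3 log2 units in each panel) of 4 probe sets of Actb, Pfn1 and Coro1a against the mean of the 9 hybridization control probe sets (x axis, log2), 1 point per array, red for labelled SCLtg LMO1tg, blue for labelled control, triangles for the high and circles for the low set. Actb 1419734_at rises with the controls, Pfn1 and Coro1a 1416246_a_at are higher in the low set, and Actb 1436722_a_at is level.

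Of the 18 tested probe sets, 3 did not overlap between the hybridization sets, Actb 1419734_at, Pfn1 and Coro1a 1416246_a_at, where 38.5% of all tested did not. Actb was higher in the high set, and Pfn1 and Coro1a were higher in the low set.

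Cfl1 encodes cofilin 1, which severs filaments and speeds their turnover. Its probe sets gave values of opposite sign. Probe set 1448346_at read 7.55, 7.89 and 7.74 against 7.80, 7.67 and 8.24, a difference of −0.18 (95% interval −0.59 to 0.23). Probe set 1455138_x_at read 11.72, 11.29 and 11.64 against 11.49, 11.46 and 11.42, a difference of 0.09 (95% interval −0.26 to 0.44). Both overlap between the labels, and both changed sign with array weights, to 0.010 and −0.076.

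Coro1a encodes coronin 1A, a regulator of Arp2/3 branches in white blood cells that T cells need for survival and migration. Probe set 1416246_a_at read 9.39, 9.73 and 9.82 in the arrays labelled SCLtg LMO1tg and 9.68, 9.21 and 8.84 in those labelled control. Probe set 1455269_a_at read 9.49, 9.65 and 9.39 against 9.42, 8.86 and 9.09. The differences were 0.40 (SE 0.22, 95% interval −0.10 to 0.90) and 0.39 (SE 0.18, 95% interval −0.01 to 0.78), the largest positive ones among the 18, and neither passed (limma adjusted p = 0.610 and 0.565). In both, control 1 overlapped the arrays labelled SCLtg LMO1tg, while control 2 and control 3 were the lowest arrays. The first was 0.20 without control 3 and 0.62 without control 1, and the second 0.25 without control 2. With the hybridization set as a block the differences were 0.23 and 0.31, with 0.09 and 0.10 within the low set and 0.37 and 0.52 within the high set. The remaining probe set, 1435288_at, read 3.82 to 4.33, below the filter.

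The Arp2/3 complex starts new branches on existing filaments. Its subunit Arpc2 read 10.99, 11.13 and 11.21 in the arrays labelled SCLtg LMO1tg and 11.22, 11.36 and 11.17 in those labelled control, a difference of −0.14 (95% interval −0.46 to 0.18). Arpc5, another subunit, read 9.48, 9.48 and 9.58 against 9.51, 9.86 and 9.58, a difference of −0.14 (95% interval −0.47 to 0.20). Neither passed, and both overlap between the labels. Of the 9 genes of the complex, 6 were tested with 10 probe sets. The differences ran from −0.14, in Arpc2, to 0.41, in Actr3, the gene of an actin-related subunit. Actr3 probe set 1426392_a_at read 9.30, 9.32 and 9.83 against 9.38, 9.18 and 8.67 (SE 0.22, adjusted p = 0.607). It did not overlap between the hybridization sets, and with the set as a block its difference was 0.28. The other Actr3 probe sets differed by 0.26 and 0.098.

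Tes encodes testin, a LIM-domain protein of focal adhesions and stress fibres. It was lower by both of its probe sets in the arrays labelled SCLtg LMO1tg, by 1.99-fold and 2.08-fold, without passing the adjusted threshold. Probe set 1460378_a_at read 6.67, 6.68 and 6.36 in the arrays labelled SCLtg LMO1tg and 7.94, 7.51 and 7.24 in those labelled control. Probe set 1424246_a_at read 6.01, 6.33 and 6.36 against 7.81, 7.65 and 6.42. In neither do the labels overlap, but in the second control 3, at 6.42, lay just above SCLtg LMO1tg 3, at 6.36, and far below the other controls.

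For 1460378_a_at the difference was −0.995 (SE 0.20, 95% interval −1.44 to −0.55) with a limma adjusted p = 0.183. For 1424246_a_at it was −1.06 (SE 0.32, 95% interval −1.79 to −0.33) with an adjusted p = 0.416. The labels do not overlap, so the sign within each hybridization set was fixed. There the differences were −1.42 and −0.70 for the first and −1.46 and −1.02 for the second, in the low and high set. Control 1 is the only control of the low set, and SCLtg LMO1tg 1 the only array of its label in the high set. Neither probe set separates the hybridization sets. The call turned on the settings: with array weights both passed (adjusted p = 0.0262 and 0.0422), as did Actb 1419734_at (−1.87, adjusted p = 0.0422) and, outside the 10 genes, Parvg and Capza1 (adjusted p = 0.0422 and 0.0485), and without control 3 the second did (−1.49, adjusted p = 0.0173). Over all alternatives the adjusted p ran from 0.0262 to 0.836 for 1460378_a_at and from 0.0173 to 1.00 for 1424246_a_at. In these mixed cells fewer cells that carry a transcript and less transcript per cell cannot be told apart, and 2 of the 8 marker means were lower in all 3 arrays labelled SCLtg LMO1tg than in any control, those of fibroblasts, smooth muscle and pericytes, with 10 of 17 probe sets below the filter, and of B cells. The means for endothelium and thymic epithelium overlapped, and those of neutrophils and erythroid cells were higher.

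**Figure D4:**
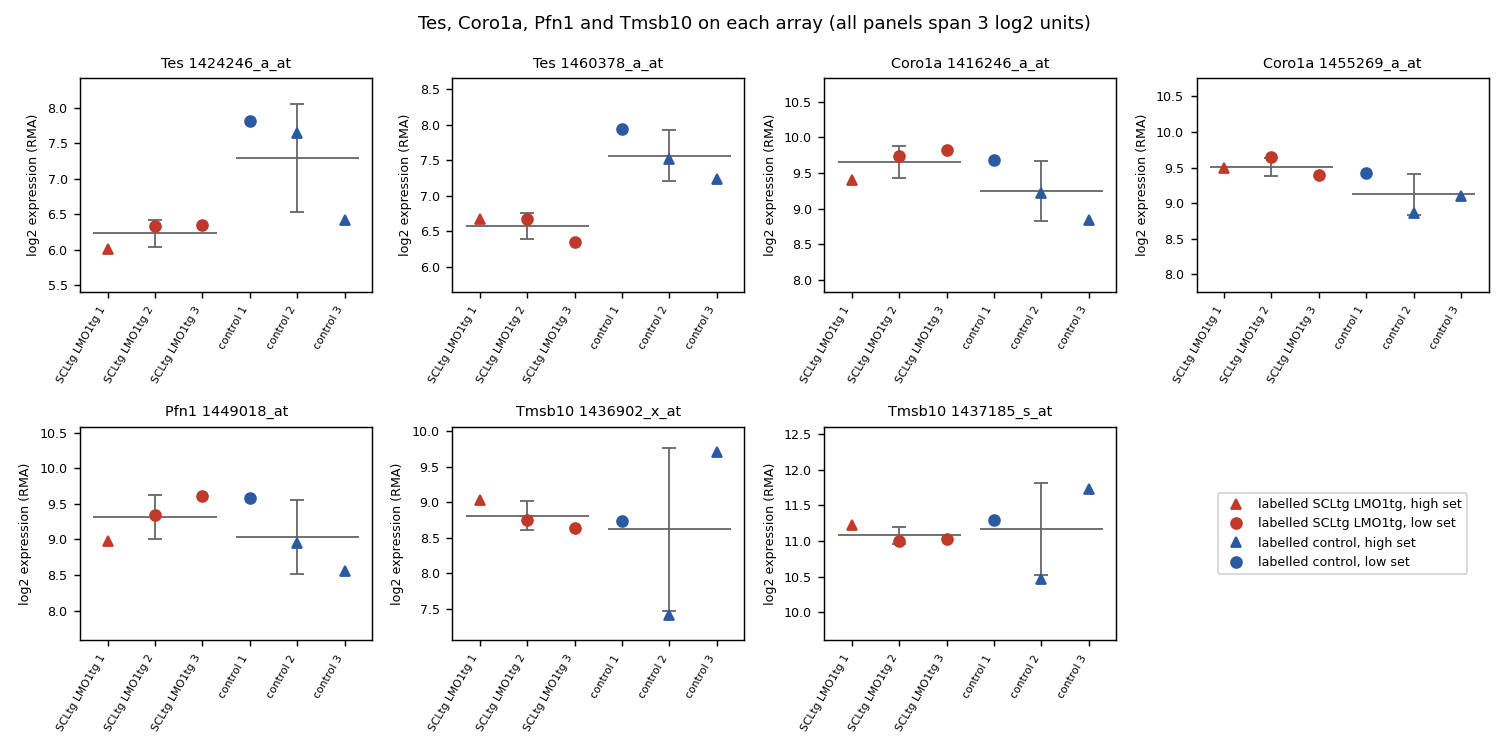
Log2 expression (y axis, each panel spanning 3 log2 units) of the tested probe sets of Tes, Coro1a, Pfn1 and Tmsb10 on each array (x axis), red for labelled SCLtg LMO1tg, blue for labelled control, triangles for the high and circles for the low hybridization set, with mean and SD of 3 arrays in grey. Both Tes probe sets are lower in all 3 red arrays, and in Tmsb10 the widest values are control 2, at 7.42 and 10.47, and control 3, at 9.70 and 11.74.

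The wider actin machinery was read through 12 lists with 135 genes, of which 114 had a probe set of their own and 97 were tested, with 171 probe sets. No probe set passed limma at an adjusted p under 0.05. At an unadjusted p under 0.05, 13 were lower and 3 higher, or 7.60% and 1.75% of the 171, against 2.67% and 6.18% of all tested, and the lowest adjusted p was 0.183, for Tes. Without SCLtg LMO1tg 1 the counts were 9 and 9, or 5.29% each of the lists' probe sets, against 3.39% lower and 9.80% higher of all tested. Several of the 171 probe sets read the same gene, and the median difference was 0.01.

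Of all tested, 2.67% were lower and 6.18% higher at an unadjusted p under 0.05. Among the membrane and adhesion linkers, 5 of 28 probe sets were lower and 1 higher. Beside both of Tes they were Zyx, the focal adhesion protein zyxin, at −0.44 (SE 0.15), Enah, which protects growing filament ends, at −0.57 (SE 0.22), and Lasp1, a LIM and SH3 protein, at −0.42 (SE 0.16). Lasp1 had 8 probe sets, which ran from −0.42 to 0.18. The 1 higher probe set was 1 of 2 of Parvg, a parvin of blood cells, at 9.60, 9.78 and 9.74 against 9.49, 8.55 and 9.13, a difference of 0.65 (SE 0.22), while the other Parvg probe set differed by −0.031. The other probe sets of Zyx and Enah differed by −0.24 and −0.20. Zyx read 7.69, 7.78 and 7.73 against 8.20, 7.98 and 8.35, with no overlap between the labels. None of these passed the adjusted threshold (limma adjusted p of 0.183 to 0.499).

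Of the 25 crosslinker probe sets, 2 were lower and 1 higher at an unadjusted p under 0.05, where 2.67% and 6.18% of all tested were. Sptbn1, a spectrin of the membrane skeleton, read 5.63, 5.69 and 5.51 against 5.97, 6.35 and 6.11, and Flna, the crosslinker filamin A, 6.57, 6.52 and 6.59 against 6.87, 6.998 and 6.88. Neither overlaps between the labels, with differences of −0.54 and −0.36. Of 3 probe sets of Actn1, an alpha-actinin, 1 differed by 0.42 and did not overlap between the hybridization sets, and the others differed by −0.025 and −0.21. The other probe sets of Sptbn1 differed by −0.21 and −0.30.

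Where 2.67% of all tested were lower at an unadjusted p under 0.05, the proteins that start filaments gave 3 lower probe sets. Of 17 probe sets of nucleation-promoting factors these were Wipf1, a partner of the Wiskott-Aldrich protein, at −0.48 (SE 0.20) and by its other probe set at −0.25, and Nckap1, a WAVE complex subunit, at −0.42 (SE 0.14). Of 3 formin probe sets it was 1 of Diaph1, which read 8.34, 8.35 and 8.37 against 8.99, 8.53 and 8.97, while the other Diaph1 probe set differed by −0.10. Capza1, a subunit of the barbed-end capping protein, was the 1 higher of 10 probe sets of capping proteins, where 6.18% of all tested were higher. It read 8.90, 8.85 and 8.96 against 8.62, 8.12 and 8.34 (difference 0.55, SE 0.16). Its second probe set differed by 0.10.

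The SRF axis holds serum response factor, its actin-sensing cofactors and some of its targets. Of 14 probe sets, 3 were lower and 0 higher at an unadjusted p under 0.05, where 2.67% and 6.18% of all tested were. The 3 were Ier2, an immediate early gene, at −0.48, Cnn2, a calponin, at −0.38, and Mrtfa, the cofactor that binds actin monomers, at −0.36. The median of this list was −0.19, and Srf itself differed by 0.23 and 0.04 by its 2 probe sets. Nothing passed at an unadjusted p under 0.05 in the lists of the Arp2/3 complex, monomer-binding proteins, severing and debranching proteins, tropomyosins and nonmuscle myosin, and the muscle isoforms. The largest difference of the myosin list was 0.21 (SE 0.17), in Myl12a, a regulatory light chain, whose other probe set differed by −0.032.

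**Figure D5:**
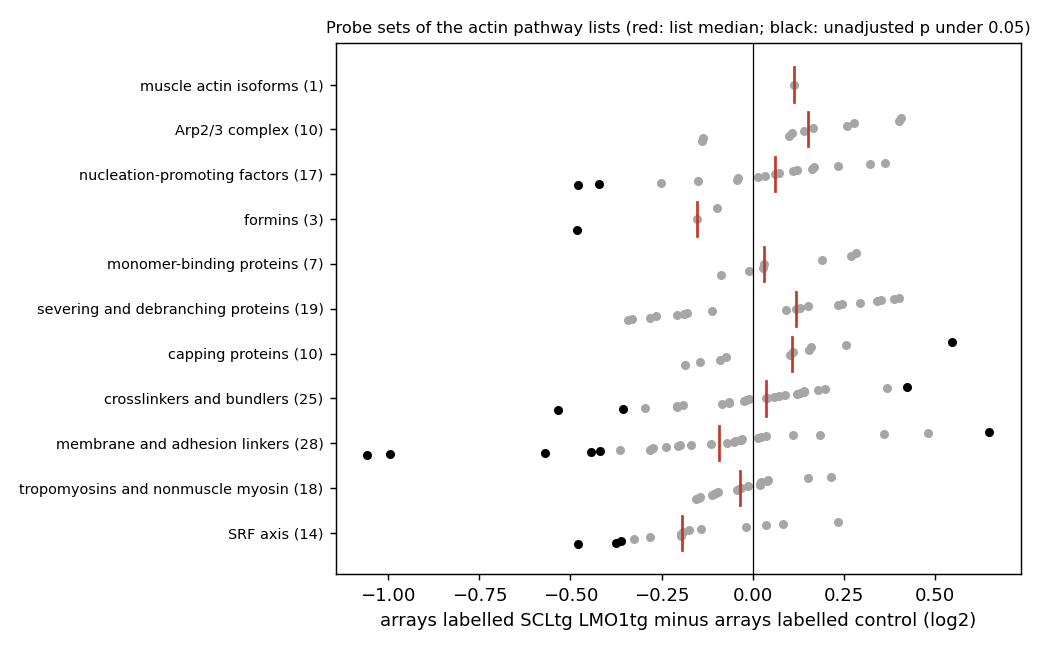
Difference in log2 expression (x axis, arrays labelled SCLtg LMO1tg minus arrays labelled control) of each of the 152 tested probe sets in 11 of the 12 actin lists (y axis, probe sets per list in brackets), with list medians as red bars and black points where the unadjusted p was under 0.05. Most points lie between −0.5 and 0.5, and the 2 lowest, near −1, are those of Tes.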

How the data were processed

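RNA of thymocytes was amplified, labelled and hybridized to 6 Affymetrix mouse arrays, 3 per label. The authors ran RMA in affy, whose version is not stated, to background-correct, normalize and summarize the probes, and deposited log2 expression values of 22690 probe sets. The study went on to drop what MAS5 called absent under both conditions and to rank the rest with Rank Products, but no probe set is missing from the deposited values for that reason. RMA can narrow true differences, since it forces the arrays to 1 distribution. Precision is limited by how few arrays there are.

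Of the probe sets, 20393 carry exactly 1 gene in the platform's annotation, and 20364 of these were found in RefSeq by gene number, with 0 symbols changed. The labels were set against each other in limma 3.58.1 (R 4.3.3) without covariates, over the 13779 probe sets that passed the filter given in the results. Of 64 Affymetrix control probe sets, 61 were left out of the tests, and the 3 for beta-actin were kept. Intervals are 95% intervals of the difference. The 3′ minus 5′ values were compared with exact permutation tests. Rank products were taken over the 9 pairwise differences with 100 permutations. The limma and rank product steps were tested on simulated data.

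The genes, the actin and marker lists and the hybridization sets were chosen with earlier results of these data known. Named are every gene of the set with every probe set, genes of the lists that pass, and per list the gene of the largest difference. The other genes of the lists with an unadjusted p under 0.05, and Srf, were named after their values were seen. Xist served to describe the arrays. Of the actin lists, 1 enters the totals and is not reported here on its own. Alternatives were array weights, rank products, an adjusted p under 0.1, leaving out each array in turn, a block for the hybridization set or for the replicate number, the Gapdh 3′ minus 5′ value as covariate, median centring, a second quantile normalization, a robust fit with a variance trend, the 60th percentile as filter, and no filter.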

Additional observations from a re-analysis of the deposited data

How the results depend on the processing

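Of 270 differences, 18 probe sets under 15 alternative fits each, 244 kept their direction and their side of the threshold, 22 changed sign and 4 came to pass. The 8 probe sets that never changed sign were Actb 1419734_at, the 3′ control, Pfn1, both of Coro1a, Arpc2 and both of Tes. Those that did were small differences, and the cause was not tested. With arrays centred on their medians Actb 1436722_a_at turned to 0.0098 and Tmsb4x to 0.038. With the Gapdh covariate Actb 1436722_a_at turned to 0.021, the 5′ control to 0.34, Actg1 to 0.0072, Tmsb4x to 0.041, Tmsb10 1436902_x_at to −0.56 and Arpc5 to 0.012. The middle control turned to −0.045 after quantile normalization and to −0.0018 with array weights, which also turned Cfl1 to 0.010 and −0.076 and Tmsb10 1437185_s_at to 0.12. Leaving out 1 array at a time gave −0.18 to 0.039 for Actb 1436722_a_at, −0.40 to 0.25 for the 5′ and −0.19 to 0.26 for the middle control, −0.10 to 0.049 for Tmsb4x, −0.41 to 0.73 and −0.43 to 0.20 for Tmsb10, and −0.18 to 0.50 for the 3′ minus 5′ difference of Actb.

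The number of all probe sets called, 14, was 358 with array weights, 103 by rank products, 8 with the replicate block and 6 with the Gapdh covariate, and 5 to 14 when 1 array was left out (5 without control 2, and 7 each without SCLtg LMO1tg 2 and SCLtg LMO1tg 3). The count among the 18, 0 as given, was 3 with array weights and by rank products, 1 by rank products at a percentage of false positives under 0.01, added after seeing the data, and 0 to 1 when 1 array was left out. The count in the actin lists, 0 as given, was 4 with array weights (both of Tes, Parvg and Capza1) and 0 to 1 when 1 array was left out. The lists' 13 lower and 3 higher at an unadjusted p under 0.05 became 5 and 1 with the Gapdh covariate (2.92% and 0.585%, against 1.63% and 3.32% of all tested), 6 and 2 with the replicate block (3.51% and 1.17%, against 1.35% and 3.86%), 8 and 4 with median centring (4.68% and 2.34%, against 1.98% and 6.60%) and 18 and 14 with array weights (10.5% and 8.19%, against 9.38% and 17.8%). Same-numbered arrays had residual correlations of −0.631, 0.0541 and −0.381. Arrays of the same number always lie in different hybridization sets, so these values cannot tell whether the replicate numbers are pairs. The replicate block called 0 of the 18.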
